A study of Saccharomyces cerevisiae with 3 samples.

Results

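The genes for the core histones and their variants in budding yeast were examined in lists of DNase I hypersensitive sites. The members were 10 genes chosen by name, HTA1, HTA2, HTB1, HTB2, HHT1, HHT2, HHF1, HHF2, HTZ1 and CSE4, out of 6002 nuclear protein-coding genes. For each of them, every site that shared at least 1 bp with the stretch from 1000 bp upstream of the start codon to the stop codon was taken from each list. In DNase-seq, nuclei are exposed to DNase I and the cut ends are sequenced, so that a stretch where cuts pile up is called a site of open chromatin. The 3 libraries, 1 per strain, came from the MATa strain BY4741 as wild type and from isolates of the same background with the genotypes sba1-/- and gcn5-/-, all grown in rich medium with 2% glucose. SBA1 is the gene for p23, which assists the chaperone Hsp90. Gcn5 acetylates histones, H3 above all, as the catalytic subunit of SAGA, and the series asked how the loss of either protein bears on open chromatin. Each strain was measured once, so strains are compared as single libraries, without replicates or tests.

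Core histones wrap DNA into nucleosomes. H2A and H2B are made from the HTA and HTB genes, and H3 and H4 from the HHT and HHF genes. Each core histone has a pair of gene copies in yeast, and the copies lie in divergent pairs: a gene for H2A next to one for H2B, or a gene for H3 next to one for H4, transcribed away from a shared promoter. These pairs are transcribed around the time of DNA replication. Spt10 acts on activating elements in the shared promoters, and the HIR complex holds the pairs other than HTA2-HTB2 down outside S phase. HTZ1 encodes H2A.Z, the H2A variant found in nucleosomes beside promoters, and CSE4 encodes the H3 variant of centromeric nucleosomes.

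The lists held 3260 sites in wild type, 2439 in sba1-/- and 3062 in gcn5-/-, with a median nuclear width of 247, 350 and 261 bp. The lowest score in each was 1.90, 1.86 and 1.89. The score is the authors' own value per site. The sources used here do not give its scale, and it served only to rank a site within its list. It rose with width across the sites of each list (Spearman's rho 0.906, 0.925 and 0.906), so score and width cannot be read apart. The lists carry no read depth, so a missing site does not show closed chromatin. No site covered GCN5 coding sequence in gcn5-/- or in wild type, and a site covered 1.84% of SBA1 in sba1-/- against 0% in wild type, so these lists do not check the strain labels. Positions are 1-based on sacCer3.

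Of the 4 shared histone promoters, 2 carried no listed site in any list, as did 34.1% of all 1527 divergent regions. HTA1-HTB1 and HHT1-HHF1 had none between their start codons in any of the 3 lists. HTA2-HTB2 had none in wild type and gcn5-/-, and a single site of 12 bp in sba1-/-. The shared promoter of HHT2 and HHF2 carried sites in all 3 lists. Of the variants, HTZ1 had a wide promoter site in all 3 lists and CSE4 had none.

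**Figure D1:**
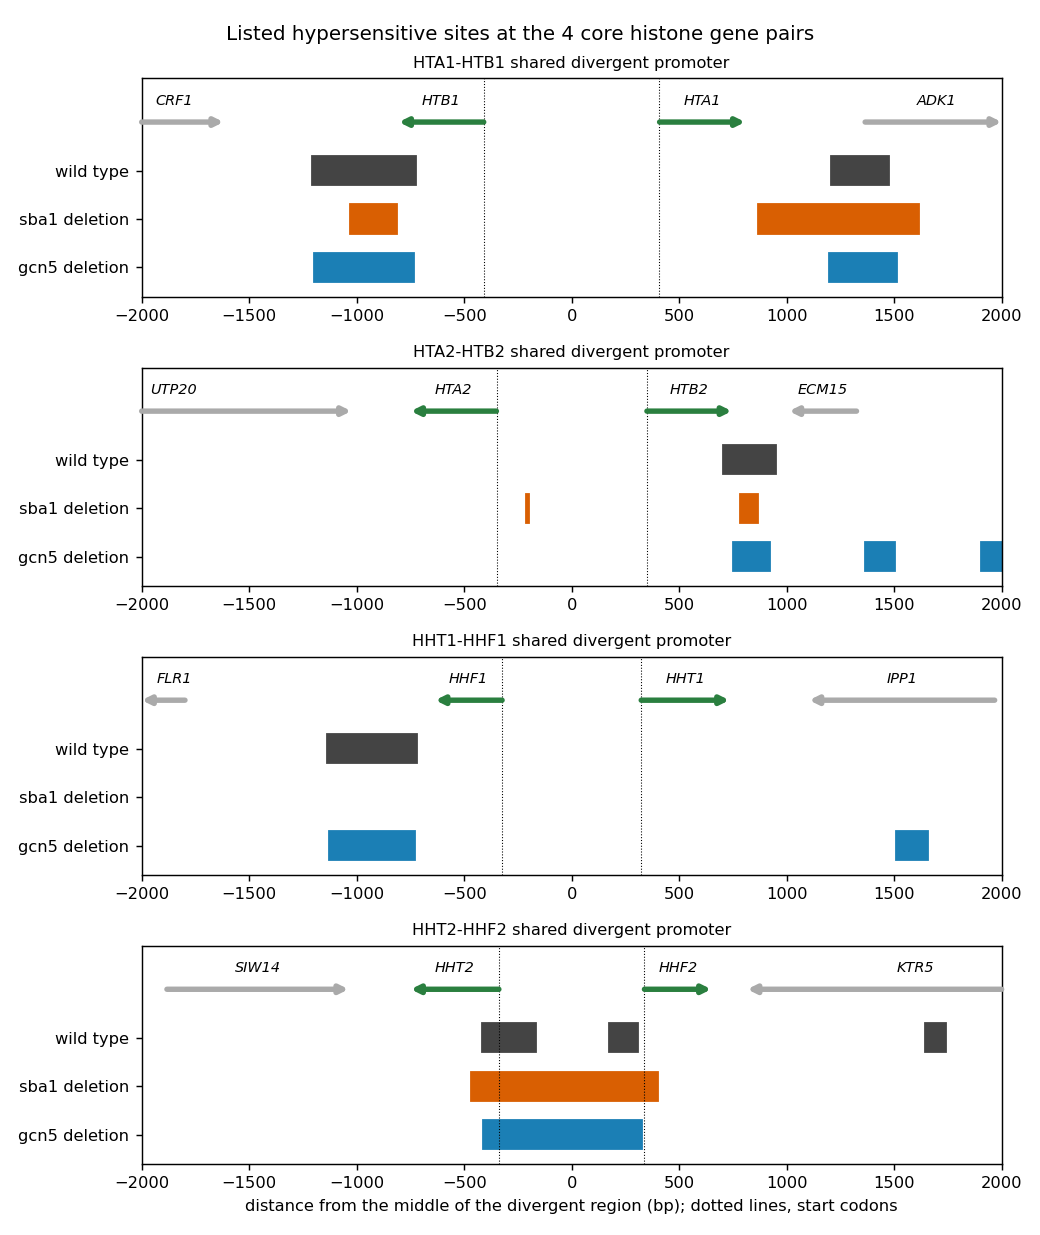
Listed sites (bars) of each strain around the 4 core histone gene pairs, against distance in bp from the middle of the region between the start codons; green arrows are the histone genes and grey arrows their neighbours, pointing in the direction of transcription. Sites lie between the start codons of HHT2 and HHF2 in every list, and the other shared promoters are empty but for 1 bar of 12 bp in the sba1-/- list.

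At the H2A and H2B genes, the pair HTA1 (YDR225W, chromosome IV 915530 to 915928) and HTB1 (YDR224C, chromosome IV 914317 to 914712) is separated by 817 bp. The covered share of these 817 bp was 0% in each of the 3 lists. The nearest sites lay at or past the stop codon on both sides. On the HTB1 side, a wild-type site at chromosome IV 913913 to 914397 was 485 bp wide with a score of 2.67, above 79.4% of its list, and it covered the last 81 bp of HTB1, 20.5% of the gene. The gcn5-/- list had it at 913923 to 914386, 464 bp wide with a score of 2.64, covering 70 bp or 17.7%. The sba1-/- list had a narrower site at 914091 to 914309, 219 bp wide and scored 1.93, higher than 12.0% of sba1-/- sites. It began 8 bp past the stop codon and covered no coding base. So the end of HTB1 was marked in every list, with nearly the same edges in wild type and gcn5-/-.

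On the HTA1 side, sites lay between HTA1 and its neighbour ADK1, an adenylate kinase gene that starts 557 bp past HTA1 on the same strand. They ran from 916325 to 916597 in wild type, from 915987 to 916736 in sba1-/- and from 916320 to 916633 in gcn5-/-, and all 3 crossed the start codon of ADK1. Their widths were 273, 750 and 314 bp. The sba1-/- site was the widest and began 59 bp past the HTA1 stop codon, against 397 bp in wild type and 392 bp in gcn5-/-. HTA1 itself had no covered coding base in any list.

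HTA2 (YBL003C, chromosome II 235394 to 235792) and HTB2 (YBL002W, chromosome II 236492 to 236887) are separated by 699 bp. The site of 12 bp in sba1-/- lay at chromosome II 235931 to 235942, 139 bp upstream of the HTA2 start codon. Its score of 1.86 was above only 3 of the 2439 scores of that list, and 5 sites of the list were 12 bp wide or less. It stood at the limit of what that list holds. It is also the one promoter site of a histone gene that was listed in a deletion strain and not in wild type. Among all genes without a wild-type promoter site within 500 bp of the start codon, 19.7% had one in sba1-/- and 11.9% in gcn5-/-.

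At HTB2, too, every list had a site at or just past the end of the gene. In wild type a site at chromosome II 236844 to 237094, 251 bp wide with a score of 2.27, covered the last 44 bp of HTB2, 11.1% of the gene. In sba1-/- the site ran from 236924 to 237007, 84 bp wide with a score of 1.91, and in gcn5-/- from 236894 to 237063, 170 bp wide with a score of 2.13. Both lay past the stop codon, by 37 and 7 bp. The score was above 59.0% of the list in wild type, 8.65% in sba1-/- and 39.3% in gcn5-/-. The site was widest in wild type and was nested in the wild-type interval in both deletion strains. HTB2 faces ECM15 end to end across 265 bp, and HTB1 faces CRF1 end to end across 814 bp, so neither site lay upstream of the adjoining gene.

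At the H3 and H4 genes, the copies differed. HHT1 (YBR010W, chromosome II 256331 to 256741) and HHF1 (YBR009C, chromosome II 255373 to 255684) are separated by 646 bp, and neither the region between them nor either coding sequence had a covered base in any list. The nearest wild-type site lay at chromosome II 254871 to 255289, 84 bp past the HHF1 stop codon, 419 bp wide with a score of 2.33. It stood in the 1163 bp between HHF1 and FLR1, a multidrug transporter gene on the same strand. The gcn5-/- list held it at 254878 to 255278, 401 bp wide with a score of 2.55. The sba1-/- list had no site there, and its nearest site was 1967 bp from the HHF1 start codon, against 395 bp in wild type and 406 bp in gcn5-/-. On the HHT1 side no list had a site within 500 bp past the stop codon. The sba1-/- list was thus empty on both sides of the pair, and differed from wild type on the HHF1 side only.

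HHT2 (YNL031C, chromosome XIV 575640 to 576050) and HHF2 (YNL030W, chromosome XIV 576727 to 577038) are separated by 676 bp. Wild type had 2 sites there with 340 bp between them. The first, at chromosome XIV 575973 to 576221, was 249 bp wide with a score of 2.35, crossed the HHT2 start codon and covered 78 bp or 19.0% of HHT2. The second, at 576562 to 576698, was 137 bp wide with a score of 2.03 and ended 29 bp before the HHF2 start codon. Each start codon thus had a wild-type site of its own at or beside it.

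In both deletion strains the same region was listed as 1 site. In sba1-/- it ran from 575920 to 576790, 871 bp wide with a score of 4.45, above 86.2% of its list. It covered all 676 bp and reached 131 bp into HHT2 and 64 bp into HHF2, 31.9% and 20.5% of these genes. In gcn5-/- it ran from 575975 to 576714, 740 bp wide with a score of 3.13, above 85.2% of its list. It covered 98.2% of the region and 76 bp of HHT2, and ended 13 bp before HHF2. The wild-type sites covered 45.6%. A single listed site was not particular to this promoter. Of 142 divergent regions with at least 2 wild-type sites, 35 or 24.6% had just 1 in both deletion strains. In sba1-/- 70 did, and in gcn5-/- 52. A region that only lost a site is counted too. The counts thus do not show how often 1 site spans the wild-type sites, as it does here. The deletion lists share the wild-type list as their reference, so these counts are not independent of each other.

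**Figure D2:**
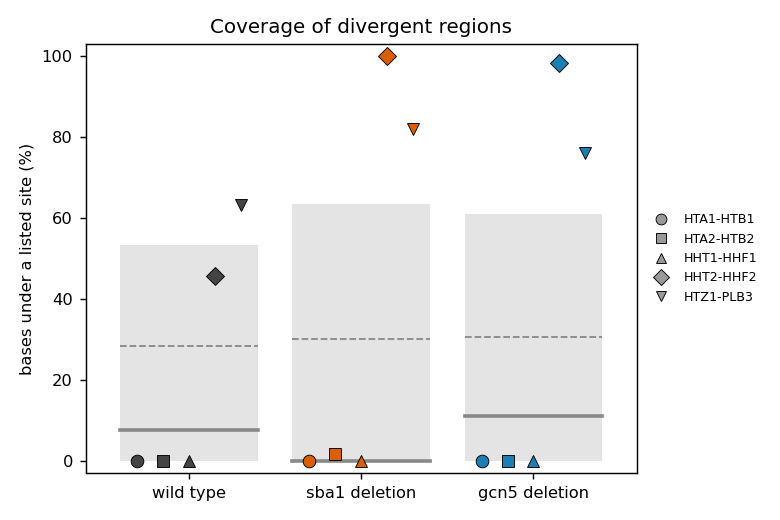
Percent of bases under a listed site in each of the 4 shared histone promoters and in the region between HTZ1 and PLB3, by strain; grey boxes span the quartiles of all 1527 divergent regions, with their median (solid line) and mean (dashed line). HHT2-HHF2 stands at 45.6% in wild type, 100% in sba1-/- and 98.2% in gcn5-/-, while 3 of the 4 histone pairs stand at or near 0%.

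All divergent regions, the histone pairs included, give the background. Of these 1527 regions, 52.0% had a site in wild type, 48.3% in sba1-/- and 52.7% in gcn5-/-, against 1, 2 and 1 of the 4 histone pairs. Regions of 500 to 1000 bp, the size of the histone promoters, had one at 57.6%, 53.8% and 61.2%. No site in any list was found in 34.1% of all regions and 25.7% of those of 500 to 1000 bp, so an empty shared promoter, as at HTA1-HTB1 and HHT1-HHF1, was common among divergent genes. Mean coverage of the 4 histone regions was 11.4% in wild type, 25.4% in sba1-/- and 24.6% in gcn5-/-, and that of all divergent regions was 28.4%, 30.1% and 30.5%. The higher means of the deletion strains rest on HHT2-HHF2, since the other pairs were at 0% apart from 1.72% at HTA2-HTB2 in sba1-/-. They also depend on site width: with all sites given a width of 250 bp about their middle, coverage was 14.5%, 18.2% and 9.25%. So set, gcn5-/- lay below wild type. The sba1-/- value counts the 12 bp site at HTA2-HTB2 at 250 bp. At HHT2-HHF2 alone, the single site of each deletion list then covered less than the 2 wild-type sites.

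The variant gene HTZ1 (YOL012C, chromosome XV 303579 to 303983) had the widest member site of each list. In wild type it lay at chromosome XV 303977 to 304732, 756 bp wide with a score of 2.53, above 74.8% of its list, and reached 7 bp into the gene. In sba1-/- it lay at 303838 to 304958, 1121 bp wide with a score of 4.93, above 87.7% of its list. There it covered 146 bp, 36.0% of HTZ1, against 1.73% in wild type. In gcn5-/- it lay at 304030 to 304888, 859 bp wide with a score of 2.91, above 81.0% of its list, and it ended 47 bp before the start codon. The far edge therefore reached 749 bp upstream in wild type, 975 bp in sba1-/- and 905 bp in gcn5-/-. The sba1-/- site was wider than the wild-type site at both edges, and the gcn5-/- site lay further upstream at both edges.

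HTZ1 is transcribed away from PLB3, a phospholipase gene, across 1365 bp. A second site in each list crossed the PLB3 start codon, at chromosome XV 305236 to 305362 in wild type, 305206 to 305637 in sba1-/- and 305169 to 305422 in gcn5-/-, beyond the 1000 bp taken for HTZ1. Together the sites covered 63.2%, 81.9% and 76.1% of the region. Past the HTZ1 stop codon, in the 543 bp before HRD1, wild type had a site of 60 bp with a score of 1.92 and gcn5-/- one of 132 bp with a score of 2.05. The sba1-/- list had none there.

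CSE4 (YKL049C, chromosome XI 346075 to 346764) lacked sites in every list, across its upstream window, its coding sequence and 500 bp downstream. Its start codon lay 2307 bp from the nearest site in wild type, 2402 bp in sba1-/- and 2340 bp in gcn5-/-. Of all genes, 76.7%, 69.3% and 77.2% had a nearer one. The median over all genes was 606, 859 and 597 bp.

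**Figure D3:**
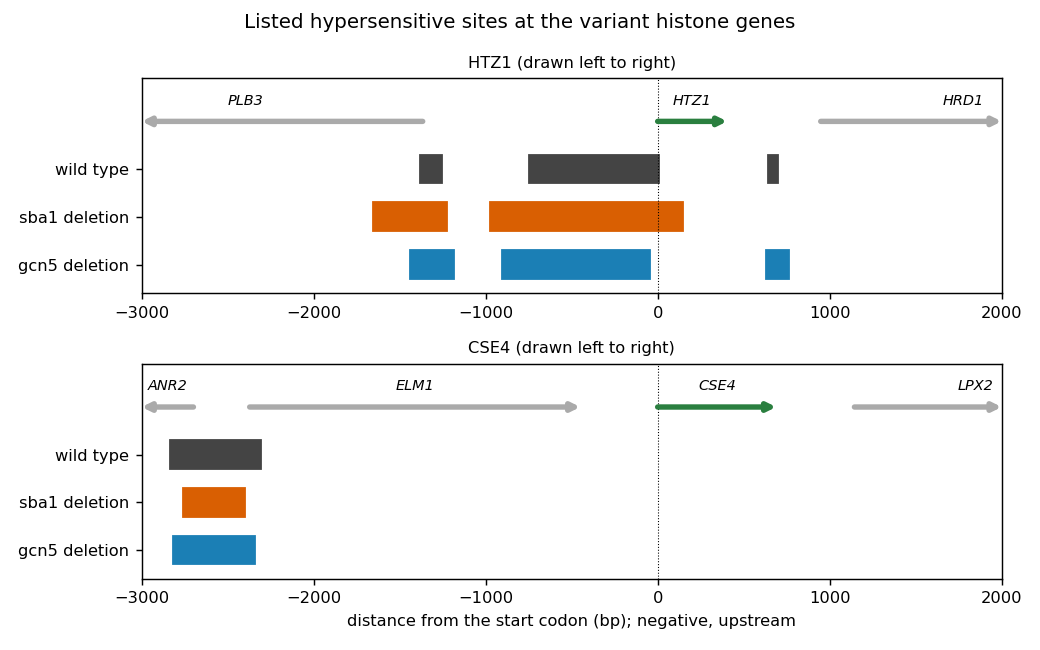
Listed sites (bars) of each strain around HTZ1 and CSE4, against distance in bp from the start codon, with the genes drawn left to right (green) and their neighbours in grey. The HTZ1 promoter site is 756 bp wide in wild type, 1121 bp in sba1-/- and 859 bp in gcn5-/-, and CSE4 has no bar within 2307 bp of its start codon.

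Counted by gene, 5 of 10 members had a site between 1000 bp upstream and the stop codon in wild type (exact 95% interval 18.7 to 81.3%), where 58.7% of all genes had one. They were HTB1, HTB2, HHT2, HHF2 and HTZ1. In sba1-/- 5 members had one (background 52.7%), with HTA2 in place of HTB1. HTB2 counted there through the 12 bp site across the shared promoter and not through its end. In gcn5-/- 4 members had one, HTB1, HHT2, HHF2 and HTZ1 (12.2 to 73.8%, background 58.7%). Within 500 bp upstream, the counts were 3, 4 and 3 of 10, against 43.2%, 38.7% and 43.9% of all genes. These counts lay near the background in every list. Against wild type, 1 of 5 members with a site in the longer window had none in sba1-/-, HTB1 (31.1% of all genes with one), and 1 of the 5 without had one, HTA2 (29.7%). In gcn5-/- 1 of 5, HTB2, had none (12.1%) and 0 of the other 5 had one (17.3%). At HTB1 in sba1-/- and HTB2 in gcn5-/- a site was still listed outside this window, beginning 8 and 7 bp past the stop codon. All 3 members with a wild-type promoter site within 500 bp had one in both deletion strains, while 36.5% of all such genes had none in sba1-/- and 14.0% had none in gcn5-/-. Paired genes share a promoter, so the 10 genes are not 10 independent observations, and the intervals cover counting error only.

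Past the stop codon, in a window chosen after sites at the gene ends had been seen, the members' counts lay above the share of all genes. Within 500 bp downstream, 5 of 10 members had a site in wild type (18.7 to 81.3%), 3 in sba1-/- (6.67 to 65.2%) and 5 in gcn5-/-, where 29.0%, 23.5% and 27.6% of all genes had one. HTA1, HTB1 and HTB2 had one in every list, and HHF1 and HTZ1 had one in wild type and gcn5-/-. Thus 2 of 5 members with one in wild type had none in sba1-/- (46.2% of all such genes) and 0 of 5 had none in gcn5-/- (19.0%), and no member without one in wild type had one in sba1-/- (11.1% of all such genes) or gcn5-/- (5.73%). The intervals include the background. Where the next gene lay on the same strand, as for HTA1, HHF1, HTZ1 and CSE4, the downstream window is also upstream of that gene. Of these 4 members, 3 had a downstream site in wild type, 1 in sba1-/- and 3 in gcn5-/-, against 38.1%, 30.9% and 37.9% of all genes so placed. Of the 6 members that faced their neighbour end to end, 2 had one in each list, against 20.5%, 16.4% and 17.8% of all such genes. A site on the last coding base was listed for HTB1 and HTB2 in wild type, for HTB1 in gcn5-/- and for no member in sba1-/-, against 10.2%, 10.0% and 12.6% of all genes.

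**Figure D4:**
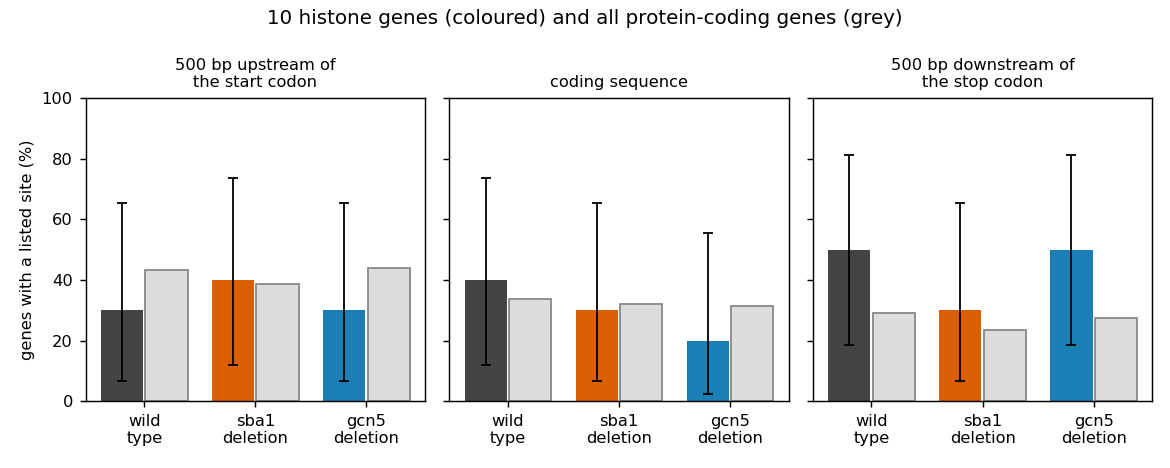
Percent of the 10 histone genes (coloured bars, with exact 95% binomial intervals) and of all 6002 protein-coding genes (grey bars) with a listed site upstream of the start codon, in coding sequence and downstream of the stop codon, by strain. Members stand at 30%, 40% and 30% upstream and at 50%, 30% and 50% downstream, and each interval includes the grey bar beside it.

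Over coding sequence, mean coverage of the 10 members was 5.23% in wild type, 8.84% in sba1-/- and 3.62% in gcn5-/-, where all genes averaged 8.08%, 13.7% and 8.24%. A covered coding base was found in 4, 3 and 2 of the 10 members (33.6%, 32.2% and 31.5% of all genes). The median coverage was 0% for the members and for all genes in every list. Coverage was higher in sba1-/- than in wild type for HHT2, HHF2 and HTZ1, 3 of 10 members (24.0% of all genes), and lower for HTB1 and HTB2 (20.6% of all genes). In gcn5-/- it was higher for no member (15.5% of all genes) and lower for HTB1, HTB2, HHT2 and HTZ1 (21.0% of all genes), by at most 44 bp. With every site set to 250 bp the members' means were 3.91%, 1.41% and 0.859%, so that sba1-/- lay below wild type. The resized means rest on HTB1 and HTB2 in sba1-/- and on HTB2 alone in gcn5-/-. There, narrower sites past the stop codon were widened into the gene. All of the covered coding bases, at the listed widths, lay at an end of a gene, and none came from a site inside one. The paired copies encode proteins that are nearly or fully identical, and the sources used here do not say how reads matching both copies were treated, so the part of this in the low coding coverage was not tested.

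Of the 5 distinct wild-type sites of the members, all 5 overlapped a site in sba1-/- (47.8 to 100%), where 53.4% of all wild-type sites did, and all 5 overlapped one in gcn5-/- (79.4% of all). This rests on an overlap of 1 bp: where 50% of both sites had to overlap, 1 of 5 was found in sba1-/- and 3 of 5 in gcn5-/-. In sba1-/- the counterparts at HTB1 and HTB2 lay outside the gene windows, past the stop codons. In each deletion list the 2 wild-type sites of HHT2-HHF2 met the same single site, so the 5 matches are not independent. For wild-type sites that overlapped just 1 site of the gcn5-/- list and the reverse, edges differed by 37 bp on average in the median pair. They differed by 10.5 bp at the end of HTB1, 9 bp downstream of HHF1, 20.5 bp downstream of HTA1, 40.5 bp at the end of HTB2 and 104.5 bp at the HTZ1 promoter. In sba1-/- the median pair differed by 93 bp, and the sites at the ends of HTB1 and HTB2, at the HTZ1 promoter and downstream of HTA1 by 133, 83.5, 182.5 and 238.5 bp. Relative to wild type the sba1-/- sites were narrower at the ends of HTB1 and HTB2, at 0.452 and 0.335 times the width, and wider at the HTZ1 promoter and downstream of HTA1, at 1.48 and 2.75 times. The median ratio over all such pairs was 0.903.

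**Figure D5:**
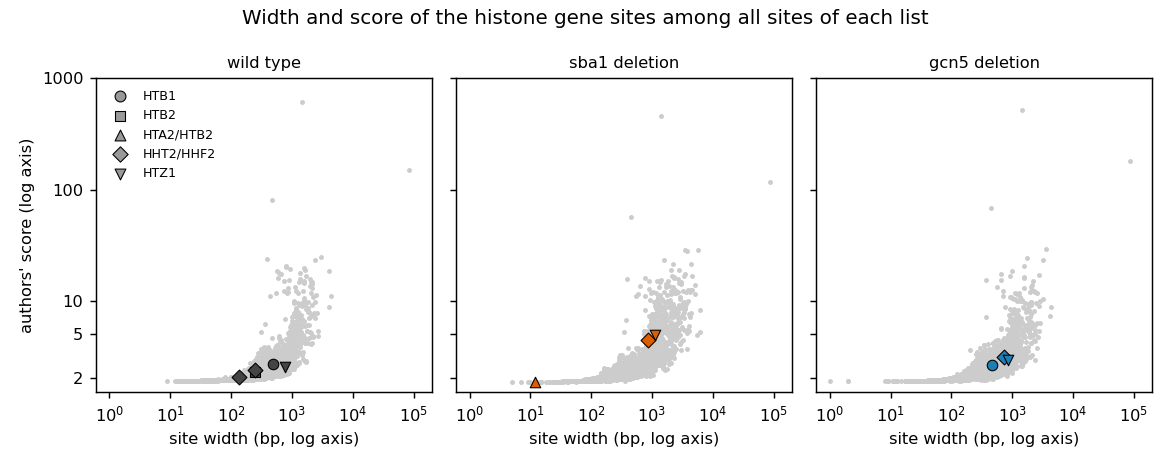
Score of each listed site, in the authors' own units on a log axis, against its width in bp on a log axis, by strain; grey points are all sites of that list and coloured symbols the sites within the windows of the histone genes. The sites of HHT2-HHF2 and HTZ1 lie among the wider and higher-scored sites of the deletion lists, and the 12 bp site of HTA2-HTB2 lies at the lower end of the sba1-/- list.

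Genes that act on the histone genes or handle histones were described by their promoter sites within 500 bp. Of 12 regulators of histone genes, 5 had one in wild type, 4 in sba1-/- and 5 in gcn5-/-. Of 12 genes for histone chaperones and deposition, 4, 4 and 3 did. Over all 26 listed genes, which add the linker histone gene HHO1 and the Cse4 ubiquitin ligase gene PSH1, the shares were 42.3%, 38.5% and 38.5%, against 43.2%, 38.7% and 43.9% of all genes. SPT10, the activator of the histone promoters, had no promoter site in any list. HIR1, a subunit of the HIR complex, had one in wild type at chromosome II 209116 to 209572, 457 bp wide, and in gcn5-/- at 209411 to 209576, 166 bp wide, and none in sba1-/-. ASF1, an H3-H4 chaperone, had one in all 3 lists. The best-scored ran on chromosome X from 196128 to 196363 in wild type, from 195127 to 195923 in sba1-/- and from 195269 to 195815 in gcn5-/-. Their widths were 236, 797 and 547 bp, and the wild-type site overlapped neither of the others. The sba1-/- and gcn5-/- sites named here ended before the ASF1 start codon. Coding coverage of ASF1 was 9.17%, 15.2% and 4.76%, so both deletion lists held a further site reaching the gene. The best-scored sites alone therefore do not show a shift at ASF1.

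Of the same 26 genes, 5 had a promoter site in some lists and not in others, where 30.9% of all genes did. Besides HIR1, SWI4, a subunit of the cell cycle factor SBF, had one in wild type and gcn5-/-. SWR1, the remodeller that places H2A.Z, had one in wild type alone, 148 bp wide with a score of 1.99. YTA7, a chromatin factor that acts at histone genes, and RLF2, a subunit of the chromatin assembly factor CAF-1, had one in sba1-/- alone. The YTA7 site was 1029 bp wide with a score of 4.50 and the RLF2 site 182 bp wide with a score of 2.00. HHO1 and PSH1 had a promoter site in all 3 lists. Mean coding coverage of the 26 genes was 4.85% in wild type, 14.5% in sba1-/- and 9.95% in gcn5-/-. All genes averaged 8.08%, 13.7% and 8.24%. The median of the 26 was 0% in each list. The 12 regulators averaged 2.39%, 1.38% and 1.05%, lower than wild type in both deletion strains. The 12 chaperone and deposition genes averaged 8.13%, 27.0% and 20.5%, and HHO1 with PSH1 0%, 18.0% and 0%.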

How the data were processed

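Nuclei were treated with DNase I and the DNA was sequenced, 1 library per strain. The submitters' processing notes name Bowtie 0.12.7 and sacCer3. The peak caller, its threshold and the treatment of reads that match several places were not stated. Each list holds positions and a score that the authors deposited, with no stated scale. Read depth is unknown.

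Groups came from the genotype labels. Gene positions came from RefSeq assembly R64, which has the sequence of sacCer3, strand from the systematic names, and 6002 nuclear protein-coding genes were used. All 10 members matched. Divergent regions lay between the outer start codons of adjacent genes on opposite strands. Coverage is the share of bases under sites. Shares have exact Clopper-Pearson 95% intervals. The code was tested on simulated data. Python 3.11.15 was used with scipy 1.17.1, numpy 2.4.6, matplotlib 3.10.9 and pandas 2.3.3.

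The members and lists were chosen with earlier results of these data known. Named were all members, SPT10, HIR1 and ASF1, and the genes of the histone pathway lists with a promoter site in some lists only. Neighbours were named where a site reached them, and some others next to a member were named to place a site. HHO1 and PSH1 were added after their values were seen. The downstream window, the edges of paired sites and the background of 500 to 1000 bp regions were also chosen after seeing the data. Alternatives covered windows, site midpoints, overlap of 50%, list size, score, width of 250 bp and merging within 150 bp. Promoter motifs and protein identity had been planned but are not analysed here, since no sequence was used.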

Additional observations from a re-analysis of the deposited data

Results flagged for a closer look

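For these results the value was above wild type in sba1-/- and below it in gcn5-/-. Whether the strains differ in this was not tested, there being 1 library of each. Coding coverage of HHT2 was 12.9 percentage points higher in sba1-/- than in wild type and fell by 0.487 points in gcn5-/-, where the covered bases numbered 78 in wild type and 76 in gcn5-/-. Coding coverage of HTZ1 was 34.3 points higher in sba1-/- and fell by 1.73 points in gcn5-/-, from 7 bp to none. Mean coding coverage of the 10 members was 3.62 points higher in sba1-/- and fell by 1.61 points in gcn5-/-. All of these contrasts depend on site width. Set to 250 bp about their middle, the sba1-/- sites at HHT2 and HTZ1 would end short of the coding sequence. With every site set to 250 bp the mean was 3.91% in wild type, 1.41% in sba1-/- and 0.859% in gcn5-/-, below wild type in both. These deletion means come from HTB1 and HTB2 only, through sites past the stop codon that were widened into the gene.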

How the results depend on the processing

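Counts of members with a promoter site stayed within 1.5 times under every alternative run, as did the downstream counts. Requiring site midpoints in the window left 3 members in wild type, and the better-scored 50% of each list left 3 in sba1-/-, in place of 5 each. With every site set to 250 bp, mean coding coverage was 3.91% in wild type, 1.41% in sba1-/- and 0.859% in gcn5-/-. So sba1-/- was no longer above wild type, and the deletion means rested on HTB1 and HTB2 only. Coverage of the shared promoters was 14.5%, 18.2% and 9.25%, so gcn5-/- was no longer above wild type. The sba1-/- value there counts the 12 bp site at HTA2-HTB2 at 250 bp. Under the overlap rule of 50% for each site, 1 of the 5 wild-type member sites had a match in sba1-/- and 3 did in gcn5-/-. With the better-scored 50% of each list, wild type included, the counts were 2 and 3. These are not out of 5, because the wild-type site beside HHF2 dropped out. Its score of 2.03 lay below the wild-type median of 2.19. The midpoint rule dropped HTB1 and HTB2 in wild type. Their site midpoints lay 557 and 477 bp from the start codon, past the 396 bp of coding sequence. The better-scored 50% dropped HTA2 and HTB2 in sba1-/-, which both rested on the 12 bp site. Its score of 1.86 lay below the sba1-/- median of 2.26. No further cause was tested for these settings. No paired analysis was possible because each strain has 1 library. The 4 shared promoters, 5 member sites and unknown depth limit every comparison.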

Other observations

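The site nearest to CSE4 lay upstream of its neighbour ELM1, a protein kinase gene, where ELM1 and ANR2 start. It was listed in every strain, at chromosome XI 349071 to 349598 in wild type with a score of 3.18, at 349166 to 349521 in sba1-/- with a score of 2.70 and at 349104 to 349581 in gcn5-/- with a score of 4.15. Within 1000 bp past the stop codons, 2 sites of the gcn5-/- list had no counterpart near the same gene in the other lists. They lay 777 bp past HHT1 at chromosome II 257518 to 257666, inside IPP1, the gene for inorganic pyrophosphatase, and 618 bp past HTB2 at 237505 to 237647. Wild type alone had a site of 98 bp past HHF2, at chromosome XIV 578033 to 578130 inside KTR5.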
